A study of Mus musculus with 12 samples.

Results

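The comparison described here is the differentiation of wild-type myeloid progenitors into neutrophils in culture, read from 4 of the 12 expression arrays of the series. Its members were chosen by label alone: the 2 arrays of undifferentiated wild-type HoxB8-ER cells and the 2 arrays of neutrophils derived from them without drug or vehicle. Mouse bone marrow cells of the C57BL/6 strain had been transduced with HOXB8 joined to the ligand-binding domain of the estrogen receptor, which makes an immortalized progenitor line. All groups carry this construct, the controls included. The wild-type cells came from littermate controls of Ezh2-null (Ezh2-/-) mice. Undifferentiated cells, at day 0, were in 0.5 µM estradiol, which holds them at a promyelocyte-like stage. Neutrophils were collected 6 days after estradiol was removed, so loss of the hormone, loss of HOXB8 activity, time in culture and maturation cannot be told apart. Neither the number of lines nor whether duplicate arrays came from separate cultures is stated in the labels. The p-values below therefore measure only the spread between arrays, which may be technical. The remaining groups of the series, each with 2 arrays, are undifferentiated and differentiated Ezh2-null cells and wild-type neutrophils given the EZH2 inhibitor GSK343 or its vehicle.

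A neutrophil is built in steps. Promyelocytes divide, make ribosomes and fill primary granules with proteases. Later stages stop dividing, make the secondary and gelatinase granules, lobulate the nucleus and acquire the receptors, actin machinery and kinases used to find and engulf microbes. HOXB8, a homeobox factor, keeps progenitors dividing and blocks these later steps while it is active.

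The Affymetrix mouse transcriptome arrays gave a log2 signal for 65956 transcript clusters after 6732 control probe sets were left out, and 30748 genes were named from clusters with 1 symbol, taking the brightest cluster where a gene had several. The 2 undifferentiated arrays correlated at r = 0.9944 and the 2 neutrophil arrays at r = 0.9914 across clusters, against 0.9123 to 0.9234 between the groups. The background of an array was taken as the 95th percentile of its 23 antigenomic probe sets, which match no mouse sequence, and lay between 5.38 and 5.51 on these 4 arrays. Between 34.0% and 36.0% of clusters exceeded it. Among named genes, 12.1% were called higher and 19.2% lower in neutrophils at an adjusted p below 0.05 (limma, Benjamini-Hochberg over all clusters). These are the shares to set beside every count of list members below. Of the 30748 named genes, however, 16220 were at background on all 4 arrays. Many lists below hold few such genes, for example 2 of 42 chromatin enzymes, so for them these shares are a low yardstick. The shares among genes with signal were not computed. The median named gene differed by -0.0062, and the median cluster by 0.0338, -0.0137 after quantile normalization and -0.0267 after median centring. Ezh2, the gene deleted in the other genotype, read 11.57 and 11.65 on the undifferentiated arrays and 8.31 and 8.34 on the neutrophil arrays, a difference of -3.28 ± 0.155. Below, each gene's log2 signals are given for undifferentiated arrays 1 and 2 and then for neutrophil arrays 1 and 2. Differences are neutrophil minus undifferentiated on the log2 scale, ± the standard error of the limma fit over all 12 arrays. "Rose" and "fell" are used only for called genes. Where a gene's dimmer group had no array above background, its fold is a lower limit and is written as at least that many fold. Such a limit holds for this background only. A second background was the middle value of each array's negative controls. It was higher, at 6.08 and 6.00 on the undifferentiated and 6.37 and 6.60 on the neutrophil arrays. With it the limit was 298-fold and not 593.4-fold for Angpt1, and 2714-fold and not 4103-fold for Cstdc6. The limits below use the first background.

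The cells labelled as neutrophils carried the markers of neutrophils, and the starting cells those of promyelocytes together with some mast cell and basophil genes, given below. All 18 measured genes of a neutrophil identity list rose, with a median difference of 8.64, or 8.51 with the 6 genes that start at background set at their lower limits. Of 20 promyelocyte and progenitor genes, 18 fell, with a median difference of -6.24. The hexokinase gene Hk3 (-0.42) and the protease inhibitor gene Spink2 (0.03) were not called. These lists serve as a check of the labels and not as a result.

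Chil3, which encodes a chitinase-like lectin secreted by myeloid cells, was among the 15 genes with the largest rises. It read 5.69 and 5.07 before and 18.87 and 18.62 after, a difference of 13.37 ± 0.775 (limma adjusted p = 3.54e-06). Ngp, a protein of the secondary granule, read 5.39 and 5.42 before and 18.30 and 17.79 after, a difference of 12.64. A block of stefin A genes, which encode intracellular inhibitors of cysteine proteases, filled 7 of the 15 places. One of them, Cstdc6, read 4.49 and 4.51 before and 17.75 and 17.14 after, at least 4103-fold higher, and another, Csta3, read 4.67 and 4.81 before and 16.77 and 16.40 after, at least 2266-fold higher. Stefin genes are near-identical copies, so their single values are uncertain and probes may read more than one of them.

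Several of the 15 largest falls lay outside the granule genes. Angpt1, a ligand of the TIE2 receptor, read 14.39 and 15.01 before and 5.17 and 5.12 after, at least 593.4-fold lower (difference -9.56 ± 0.295, limma adjusted p = 1.51e-07). Car2, a carbonic anhydrase, fell from 15.58 and 15.51 to 6.10 and 6.17. The adhesion G protein-coupled receptor Adgrl4 fell from 15.80 and 15.63 to 8.04 and 7.55, and a related receptor, Adgrg7, from 12.23 and 12.44 to 4.64 and 5.03. Spns2, a sphingosine-1-phosphate exporter, fell from 13.39 and 13.18 to 5.95 and 5.83. Tespa1, known from T cell signalling, fell from 12.71 and 12.86 to 4.77 and 4.76, at least 156.9-fold. Igfbp7, a secreted binding protein, fell from 14.37 and 13.35 to 5.56 and 5.28. Genes entered this ranking only if the neutrophil and undifferentiated arrays did not overlap, so their separation is set by the choice.

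The promoters of the neutrophil genes are shown because the genes rose together. In the 250 bases before the RefSeq start (build GRCm38.p6), the letters TTGCNNAA, a relaxed form of the site that C/EBP factors bind, were found on either strand in 7 of 17 promoters of the neutrophil identity genes (41.2%; 16 genes had a promoter in the table), and in 3142 of all 32851 promoters (9.56%). The ETS-type letters GAGGAAGT were found in 4 of the 17 (23.5%), against 2.44% of all promoters. They were also found in 5 of 42 ribosome biogenesis promoters (11.9%). The E-box CACGTG was found in 2 of these 42 (4.76%) and in 6 of 40 promoters of mitochondrial ribosomal protein genes (15%), against 6.02% of all. These are descriptions of letters in a window, and 28 pairs of motif and gene list were counted. Below, capitals mark TTGCNNAA in the promoters of Retnlg (resistin-like gamma), Ltf (lactoferrin) and Ngp, all 5′ to 3′ on the plus strand. They lie at chr16:48872358-48872607, chr9:111019042-111019291 and chr9:110419558-110419807.
Retnlg: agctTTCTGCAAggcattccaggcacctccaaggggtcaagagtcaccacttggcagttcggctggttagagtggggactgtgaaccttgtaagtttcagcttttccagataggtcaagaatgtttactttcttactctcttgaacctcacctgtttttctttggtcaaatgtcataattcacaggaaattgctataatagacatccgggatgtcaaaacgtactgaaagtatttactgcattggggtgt
Ltf: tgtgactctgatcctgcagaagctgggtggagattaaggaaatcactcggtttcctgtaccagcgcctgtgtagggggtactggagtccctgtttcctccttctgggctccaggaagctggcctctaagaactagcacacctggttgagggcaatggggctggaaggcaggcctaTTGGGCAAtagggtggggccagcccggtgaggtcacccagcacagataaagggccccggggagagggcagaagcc
Ngp: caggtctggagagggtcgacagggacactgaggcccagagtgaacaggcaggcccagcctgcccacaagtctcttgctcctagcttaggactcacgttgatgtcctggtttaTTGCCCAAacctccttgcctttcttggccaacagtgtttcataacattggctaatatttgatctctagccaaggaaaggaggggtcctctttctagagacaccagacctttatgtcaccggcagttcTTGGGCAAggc

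Markers of other cells were read on the same arrays. Among 23 monocyte and macrophage genes 17 rose and none fell, with a median difference of 3.74. Gpnmb, a glycoprotein of macrophages, read 4.87 and 5.03 before and 14.74 and 15.14 after. Maf, a macrophage transcription factor, read 4.31 and 4.72 before and 12.39 and 14.51 after, and Trem2, a lipid-sensing receptor of macrophages, 4.99 and 5.13 before and 11.66 and 13.20 after. The complement gene C1qa, the adhesion gene Vcam1 and the scavenger receptor genes Cd163 and Marco were at background on both neutrophil arrays. The 2 neutrophil arrays differed here: 21 of the 23 genes were higher on array 2, whose list median was 10.80 against 9.81 on array 1, while all 18 neutrophil identity genes were higher on array 1, with medians of 16.39 and 15.55. The monocyte median difference was 4.41 without neutrophil array 1 and 3.06 without array 2. In bulk RNA, more cells of another type and more RNA per cell cannot be told apart, and the part of such cells in the results below was not tested.

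Lists of other lineages also held called genes, beside 31.3% of all named genes called either way. Of 17 mast cell, basophil and eosinophil genes 2 rose and 4 fell, with 1 higher without either undifferentiated array or neutrophil array 2. Of 16 erythroid and megakaryocyte genes 3 rose and 3 fell. Of 17 lymphocyte genes none rose and 2 fell, or 1 without undifferentiated array 1 or neutrophil array 1. Of 15 dendritic cell genes 1 rose and 1 fell. Of 15 stromal, endothelial and epithelial genes 1 rose, a call lost without any 1 of the 4 arrays, and 2 fell. Of the lymphocyte genes 16 were at background in neutrophils, as were 13 of the 15 stromal, endothelial and epithelial genes and 11 of the 15 dendritic cell genes. In the mast cell, basophil and eosinophil list 11 genes were at background in neutrophils, among them the tryptase gene Tpsb2, the IgE receptor genes Fcer1a and Ms4a2 and the eosinophil peroxidase gene Epx. Prg2, which encodes eosinophil major basic protein, rose from 4.93 and 4.99 to 8.68 and 9.90. The largest fall of the list was that of Cpa3, the mast cell carboxypeptidase gene, from 18.75 and 18.86 to 7.25 and 8.02. Mcpt8, a basophil protease, fell from 12.62 and 12.34 to 4.98 and 5.17, at least 127-fold, and the basophil protease Prss34 from 8.99 and 8.23 to 5.28 and 5.89. In the erythroid and megakaryocyte list 10 genes were at background in neutrophils, including Klf1, Epor and Alas2. The platelet chemokine genes Pf4 and Ppbp differed by 3.58 and 2.68. Pf4 read 8.97 on neutrophil array 1 and 12.01 on array 2, and its call was lost in 6 of 11 alternatives, among them the fit without neutrophil array 2.

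**Figure D1:**
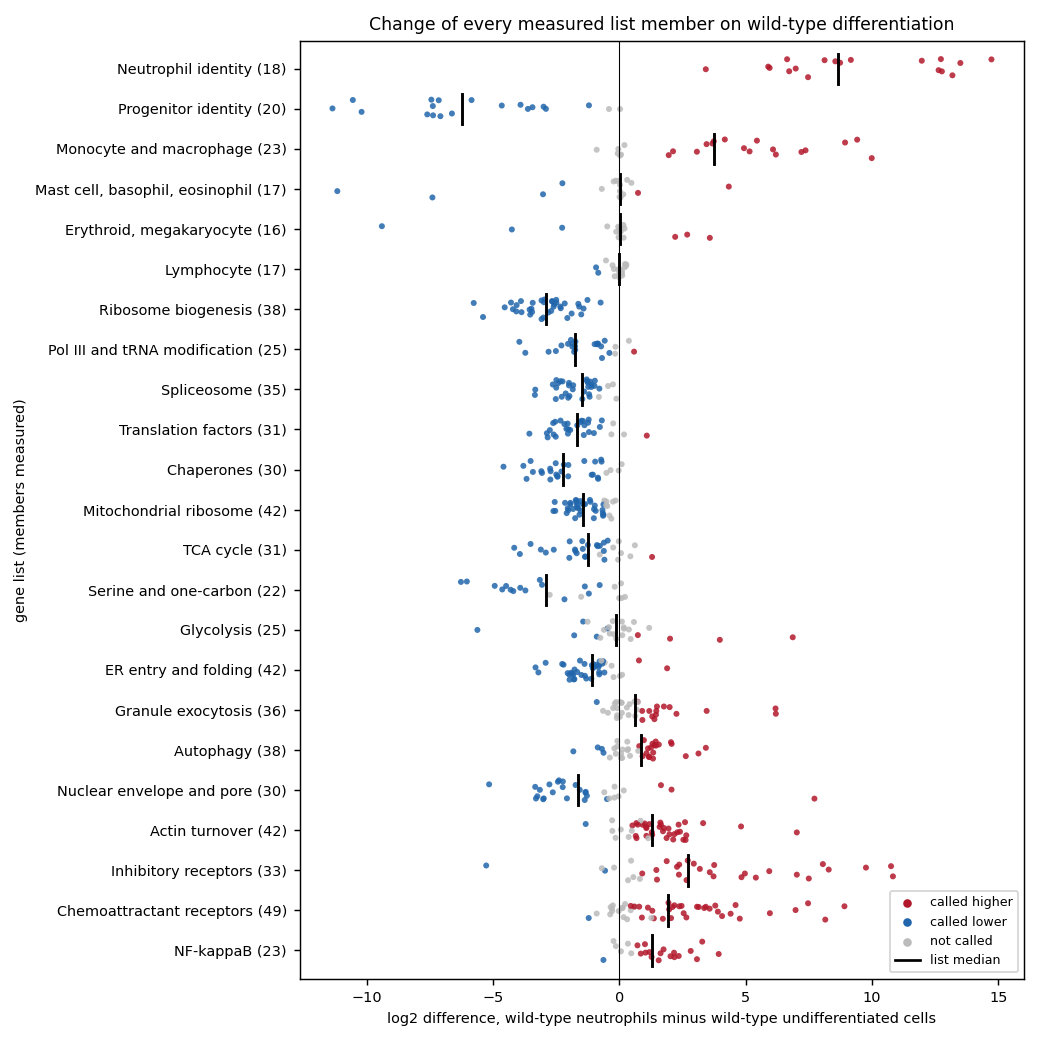
Each point is 1 measured gene of 23 lists, placed by its log2 difference between wild-type neutrophils and undifferentiated wild-type cells (x axis); red and blue points were called higher and lower by limma, grey points were not called, and black bars are list medians. Lists of growth machinery lie left of 0 (ribosome biogenesis median -2.89, chaperones -2.25) and lists of actin, receptors and exocytosis lie right of it (actin turnover 1.29, inhibitory receptors 2.71).

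Most measured genes that make ribosomes and proteins were lower in the neutrophils. All 38 measured ribosome biogenesis and nucleolar genes fell, with a median difference of -2.89. Dkc1, the pseudouridine synthase of H/ACA particles, read 13.58 and 13.67 before and 7.71 and 8.0 after (-5.77 ± 0.125, limma adjusted p = 3e-08). Nop58, the core protein of C/D particles, read 15.89 and 15.91 before and 10.17 and 10.83 after, 42.3-fold lower. Nolc1, a nucleolar chaperone of both kinds of particle, differed by -4.54 ± 0.243. Small nucleolar RNAs are bound by these proteins. Of 44 listed C/D box RNAs 22 fell and none rose (median -1.83), and of 18 listed H/ACA box RNAs 12 fell and none rose (median -1.97). Over all 959 clusters annotated as small nucleolar RNA, which include many more than those listed, 12.1% were lower and 5.63% higher, with a median difference of -0.06, beside 12.2% and 13% of all clusters. Snord104 read 15.68 and 17.62 before and 13.24 and 11.94 after, and Snora68 read 11.35 and 11.58 before and 7.70 and 6.85 after. Without undifferentiated array 2 only 13 C/D box RNAs fell and the median was -1.26; without neutrophil array 2 it was -1.15. On neutrophil array 2, 36 of 44 C/D box RNAs were lower than on array 1, whereas 33 of 38 ribosome biogenesis genes were higher.

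Of 25 genes acting on RNA polymerase III transcripts and tRNA 21 fell and 1 rose. That 1, the polymerase III initiation factor gene Brf1 (0.58), lost its call in 7 of 11 alternatives, among them each fit that left out 1 array. The pseudouridine synthase gene Pus7 fell from 9.98 and 10.16 to 6.07 and 6.15, and Nsun2, a tRNA cytosine methyltransferase, from 13.16 and 13.17 to 9.02 and 9.86. Of 35 spliceosome genes 31 fell and none rose (median -1.47), led by Snrpg, a component of the Sm ring, from 14.09 and 13.96 to 10.35 and 11.01. The splicing factor genes Sf3b1 (-0.12) and Sf3b2 (-0.26) were not called. Among 31 translation factors 27 fell (median -1.67), with Eif3i, a subunit of initiation factor eIF3, going from 11.84 and 12.18 to 9.02 and 9.25. Eif4g3, a scaffold of the cap-binding complex, was the 1 that rose, from 10.87 and 10.36 to 11.61 and 11.78. Of 30 cytosolic chaperone genes 26 fell and none rose (median -2.25). Fkbp4, a partner of HSP90 on steroid receptors, differed by -4.59 ± 0.253, and Cct3, a subunit of the chaperonin that folds actin and tubulin, by -3.68 ± 0.168. Of 33 DEAD box RNA helicases 22 fell and 2 rose. The nucleolar helicase gene Ddx21 fell by 3.90, and the 2 that rose were the viral RNA sensor gene Ddx58 (2.21) and Ddx60 (1.52).

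Most genes of mitochondrial gene expression and import fell. Of 42 mitochondrial ribosomal protein genes 34 fell and none rose (median -1.43), and of 21 import genes 18 fell and none rose (median -1.50). Mrpl12, a large-subunit protein, read 7.85 and 8.03 before and was at background after, at 5.31 and 5.45. Timm8a1, a carrier between the membranes, read 11.63 and 12.99 before and 6.82 and 7.33 after. Of 31 genes of the tricarboxylic acid cycle and pyruvate entry 23 fell and 1 rose. Idh3a, a subunit of the NAD-dependent isocitrate dehydrogenase, fell from 11.56 and 11.71 to 7.18 and 7.76, and Idh2, its NADP-dependent mitochondrial counterpart, from 12.22 and 11.74 to 7.67 and 8.41. The riser was Mpc1, of the mitochondrial pyruvate carrier, from 7.67 and 8.21 to 9.28 and 9.18. The kinase genes Pdk3 (-0.02) and Pdk4 (-0.05), which restrain pyruvate dehydrogenase, were not called.

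Metabolic pathways held genes that moved in opposite directions. Serine, glycine and one-carbon genes fell in 15 of 22 cases and rose in none, with a median difference of -2.91, or -2.53 with the genes at background set at their limits; it was -3.61 without undifferentiated array 1 and -1.92 without array 2. Shmt2, the mitochondrial serine hydroxymethyltransferase, read 13.12 and 13.60 before and 6.49 and 7.69 after (-6.28 ± 0.321). Phgdh, the first enzyme of serine synthesis, read 11.52 and 11.75 before and 6.69 on both arrays after. In the list of 13 polyamine genes 4 rose and 3 fell. Odc1, the decarboxylase that starts polyamine synthesis, fell from 13.65 and 13.78 to 7.82 and 8.01 (-5.79 ± 0.207), and the spermidine synthase gene Srm fell by 4.79. Sat1, the acetyltransferase that begins polyamine breakdown, rose from 8.40 and 9.03 to 13.75 and 13.93 (5.13 ± 0.262), and the arginase gene Arg2 rose from background at 4.42 and 4.43 to 9.94 and 8.41.

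Transporter genes also moved both ways. Of 28 amino acid transporter genes 8 rose and 8 fell. Slc7a5, the large neutral amino acid exchanger, fell from 13.85 and 14.60 to 7.35 and 7.67, and the cationic transporter gene Slc7a1 from 12.16 and 12.67 to 7.14 and 7.78. Slc15a3, a lysosomal peptide and histidine transporter, rose from background at 5.46 and 5.30 to 9.46 and 10.47, and the taurine transporter gene Slc6a6 from 12.35 and 11.88 to 15.10 and 15.20. Slc2a3, the high-affinity glucose transporter GLUT3, rose from 7.20 and 7.05 to 14.62 and 13.35, while Slc16a1, the monocarboxylate carrier MCT1, fell from 12.07 and 12.13 to 6.35 and 6.60. Among the 25 glycolysis genes that include both, 4 rose and 5 fell, or 3 fell without undifferentiated array 1 or without neutrophil array 1. Pfkfb4, a regulator of phosphofructokinase, rose by 3.97 ± 0.245, and Pfkm, the muscle-type phosphofructokinase, fell by 1.79 ± 0.329. Over all 342 solute carrier genes, 57 rose and 56 fell.

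Storage and antioxidant genes rose in part. Pygl, glycogen phosphorylase, read 10.85 and 11.02 before and 15.93 and 14.93 after, and Gbe1, the glycogen branching enzyme, 8.55 and 8.73 before and 11.66 and 10.64 after. Of 21 glycogen genes 7 rose and 2 fell, or 1 fell without neutrophil array 1 and 4 fell with quantile normalization or with the filter on dim clusters. Plin2, a lipid droplet coat protein, read 10.75 and 10.67 before and 16.68 and 16.03 after, and Dgat2, which makes triglyceride, 6.39 and 6.31 before and 13.52 and 11.46 after. Hadh, a mitochondrial enzyme of fatty acid oxidation, fell by 2.36, and of 29 genes of fatty acid oxidation and lipid storage 8 rose and 8 fell. Hmox1, heme oxygenase, rose from 5.62 and 5.50 to 12.21 and 12.97. Glutathione reductase, Gsr, rose from 12.75 and 13.24 to 16.28 and 15.29, and Pgd, of the pentose phosphate pathway, from 11.97 and 11.49 to 15.14 and 14.38. Prdx3, the mitochondrial peroxiredoxin, fell from 11.85 and 12.29 to 9.70 on both arrays. In that list of 25 genes 9 rose and 10 fell, but only 5, 6 and 4 fell without undifferentiated array 1, undifferentiated array 2 and neutrophil array 1.

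Of 42 genes for entry, folding and glycosylation in the endoplasmic reticulum 34 fell and 2 rose (median -1.10). Ssr2, of the translocon-associated complex, fell from 15.46 and 14.89 to 11.50 and 12.21, and Rpn1, of the oligosaccharyltransferase, from 15.63 and 15.86 to 12.31 and 12.76. The 2 that rose, Edem1 (1.89) and Sel1l (0.77), act in the removal of misfolded proteins. Of 23 stress response factors, 5 rose and 6 fell, and the sign of the median depended on 1 array (-0.32, or 0.13 without undifferentiated array 2); 3 rose without undifferentiated array 1. Atf3 rose by 2.20, and Asns, asparagine synthetase, fell by 3.12.

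Of 36 granule exocytosis genes 15 rose and 1, Vamp7, fell by 0.90, a call lost without undifferentiated array 2 or either neutrophil array. Lyst, the lysosomal trafficking regulator mutated in the beige mouse, read 9.27 and 9.18 before and 15.72 and 15.12 after. Stx11, a syntaxin of cytotoxic and phagocytic cells, read 5.81 and 5.71 before and 12.95 and 10.93 after, and Rab3d, a GTPase of secretory granules, 6.75 and 6.53 before and 10.81 and 9.37 after. Of 58 RAB GTPase genes 24 rose and 2 fell; Rab38, of lysosome-related organelles, fell from 11.27 and 11.47 to 6.04 and 6.57. Of 38 autophagy genes 20 rose, and 4 fell, or 2 without undifferentiated array 2 or neutrophil array 1. Atg7, the E1-like enzyme of the pathway, rose from 7.99 and 7.54 to 11.24 and 11.14, and Tfe3, a transcription factor that drives lysosomal genes, from 6.37 and 6.09 to 8.81 and 8.91. Of 25 V-ATPase genes 14 rose and none fell. Atp6v0d2 rose from background at 4.17 and 4.04 to 11.98 and 10.76, at least 61.0-fold. Among 22 cathepsins 10 rose and only Ctsg fell. Ctss, the cysteine protease cathepsin S, read 6.09 and 5.47 before and 16.52 and 16.75 after, and Ctse, an aspartic protease, 5.02 and 4.96 before and 14.42 and 12.55 after.

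Of 30 genes of the lamina, envelope and pore 21 fell and 3 rose (median -1.65). Nup210, a pore membrane protein, read 13.14 and 12.19 before and 7.42 and 7.60 after, and Nup107, of the outer pore ring, 11.29 and 11.58 before and 7.96 and 8.25 after. Syne1, the giant nesprin that ties the nucleus to actin, went the other way, from 6.93 and 6.42 to 14.85 and 13.95 (7.72 ± 0.317), with its partner Sun2 from 9.87 and 9.88 to 12.62 and 11.26. Lmna, for lamin A and C, was not called (0.17). Of 20 histone variant and histone chaperone genes 14 fell, led by the chromatin protein gene Hmgb3, from 10.91 and 10.66 to 6.71 and 6.83. Padi4, the peptidylarginine deiminase that citrullinates histones in neutrophil extracellular traps, was the 1 that rose, from background at 4.90 and 5.08 to 13.67 and 12.19, at least 180-fold. Of 42 chromatin enzymes 7 rose and 19 fell. The histone demethylase genes Kdm7a and Kdm6b rose by 4.33 ± 0.405 and 2.33 ± 0.375, and Prmt5, an arginine methyltransferase, and Hdac2, a histone deacetylase, had differences of -4.23 ± 0.282 and -3.27 ± 0.134.

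Of 19 CENP genes 15 fell and none rose (median -1.97), with Cenph going from 11.43 and 11.10 to 6.71 and 7.16. Of 37 kinesins 13 fell and 4 rose. Kif11, the motor that separates spindle poles, fell from 14.56 and 14.40 to 10.37 and 11.13. Kif1b, a motor for organelles and vesicles, rose from 5.56 and 5.61 to 10.29 and 9.59. Stmn1, a tubulin-sequestering protein, fell from 12.47 and 12.42 to 8.04 and 8.58.

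Among transcription factors, MYC fell and one of its antagonists rose. Myc read 13.29 and 13.30 in undifferentiated cells and 5.83 and 6.49 in neutrophils (-7.14 ± 0.286, limma adjusted p = 5.5e-07). Mxd1, which competes with MYC for its partner MAX, read 9.28 and 9.66 before and 15.99 and 14.66 after (5.85 ± 0.472). Of 26 MYC network and E2F genes 6 rose and 11 fell; E2f2 rose by 3.87. Id2, an inhibitor of E proteins, rose from background at 4.75 and 4.99 to 15.13 and 15.25, at least 859-fold. Bcl6, a repressor, rose from 6.05 and 6.07 to 12.99 and 11.68. The homeobox gene Meis1, a partner of HOX proteins, fell from 8.64 and 8.89 to background at 4.86 and 5.11. Gfi1 and Cebpa, factors of the early granulocyte, fell by 3.08 and 3.0. Of 46 granulocyte transcription regulators 19 rose and 15 fell, with a median of 0.19, or 0.60 without neutrophil array 2.

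**Figure D2:**
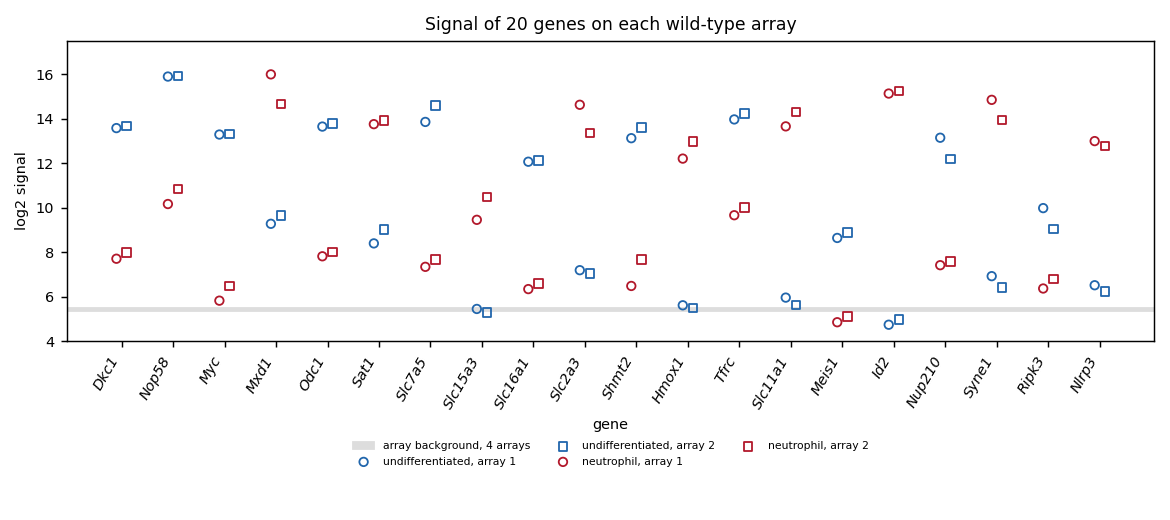
The log2 signal (y axis) of 20 genes on each wild-type array, with undifferentiated arrays in blue, neutrophil arrays in red, array 1 as a circle and array 2 as a square; the grey band spans the array backgrounds. Opposed pairs stand side by side. Myc at 13.29 and 13.30 fell to 5.83 and 6.49, and Mxd1 at 9.28 and 9.66 rose to 15.99 and 14.66. No gene shown has overlapping groups, but all 20 were picked among called genes.

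Immediate early and NF-kappaB genes were mostly higher. Of 27 AP-1, ATF and immediate early genes 14 rose and 1 fell, or 2 without undifferentiated array 1, and of 23 NF-kappaB genes and inhibitors 17 rose and 1 fell (median 1.27). The faller, the adaptor gene Traf6 (-0.63), lost its call without either undifferentiated array or neutrophil array 2. Klf6, a zinc finger factor, went from 8.37 and 9.25 to 14.71 and 14.08, and the AP-1 subunit gene Fosl2 from 7.22 and 6.84 to 11.96 and 10.90. Nfkbia, the inhibitor I-kappa-B alpha, went from 7.88 and 7.99 to 12.18 and 11.55. Of 18 circadian and PAR-bZIP factors 5 rose and 8 fell. The repressor gene Bhlhe40 rose by 3.30, and Hlf, a stem cell factor, fell from 10.12 and 9.98 to 5.88 and 5.37.

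Since estradiol was withdrawn, nuclear receptors and estrogen-linked genes were listed too: 7 of 25 rose and 2 fell, or 1 without undifferentiated array 1 or without neutrophil array 2. Rara, the retinoic acid receptor alpha, rose from 6.29 and 6.51 to 10.29 and 9.34, and the coactivator gene Ncoa3 from 10.39 and 10.06 to 12.94 and 13.48. Nrip1, a corepressor and estrogen target in other cells, fell from 8.67 and 8.89 to 6.76 and 6.86. Greb1, another estrogen target in other cells, was not called (0.04).

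Most listed genes of actin movement rose. Of 42 actin nucleation and turnover genes 33 rose and 1 fell (median 1.29). Lsp1, a leukocyte actin-binding protein, read 5.90 and 5.93 before and 13.04 and 12.83 after (7.02 ± 0.403), and the severing protein gelsolin, Gsn, 6.11 and 6.18 before and 10.87 and 11.05 after. Limk1, a kinase that inactivates cofilin, was the 1 that fell (-1.34), and cofilin itself, Cfl1, was not called (0.05). Of 26 myosin, tubulin and septin genes 9 rose and 7 fell; the class I myosin gene Myo1f read 11.96 and 11.37 before and 16.32 on both arrays after. Of 11 annexins, which bind membranes in a calcium-dependent way, 7 rose and 1 fell, led by Anxa4 from 8.67 and 8.52 to 13.33 and 13.96.

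Of 31 Fc receptor, Src and Syk kinase and adaptor genes 20 rose (median 1.54) and 2 fell, or 1 without either undifferentiated array or neutrophil array 1. The Src-family kinase gene Fgr rose from background at 5.25 and 5.31 to a mean of 13.62 ± 0.547 (SD, n = 2), at least 289-fold, and the Fc receptor gene Fcgr4 from 5.18 and 5.74 to 11.78 and 11.44. Fyn, another Src-family kinase, fell from 8.30 and 8.37 to background at 5.07 and 5.29. Src (0.02) and Csk (-0.05) were not called. Inhibitory receptors and phosphatases rose in 25 of 33 cases (median 2.71) and fell in 2, or 1 without undifferentiated array 1. Pirb, a paired immunoglobulin-like inhibitory receptor, read 5.78 and 5.41 before and 15.38 and 15.32 after (9.76 ± 0.260). Lilrb4a read 5.87 and 6.71 before and 16.67 and 17.41 after, with a near-identical copy, Lilr4b, at a difference of 10.83 that may share its probes. Pecam1, which carries inhibitory motifs and mediates adhesion, fell from 12.16 and 12.32 to 6.91 and 7.02.

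Pik3r5, the regulatory subunit that couples PI3K-gamma to G proteins, rose from background at 5.08 and 5.19 to 13.63 and 12.96, at least 231-fold, in a list of 34 PI3K and mTOR genes of which 14 rose and 4 fell. Akt1 (-0.07) and Tsc1 (0.04) were not called. Rasgrp4, a RAS activator of myeloid cells, rose from background at 4.65 and 4.74 to 12.80 and 12.22, at least 134-fold. Of the 39 genes in its list of MAP kinases, phosphatases and sprouty proteins 18 rose and 12 fell. The fallers included the feedback genes Dusp6, from 13.11 and 13.45 to 8.82 and 10.50, and Spry2, from 9.20 and 9.42 to 6.54 and 6.83. Of 26 JAK, STAT and SOCS genes 12 rose and 5 fell, but 2 or 3 fell when any 1 of the 4 arrays was left out. Stat6 rose by 2.92, and Socs3 was not called (0.03).

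Of 39 cytokine receptor genes 26 rose and 3 fell, with a median of 1.58, or 1.13 with genes at background set at their limits. Csf2ra, of the GM-CSF receptor, went from 9.03 and 9.75 to 16.02 and 15.72, while Flt3, the receptor of the progenitor ligand FLT3L, fell from 12.88 and 12.95 to 6.09 and 5.56. Of 49 chemoattractant receptor, RGS and G protein genes 33 rose and 1 fell (median 1.94, or 1.36 at the limits). The faller, the signalling regulator gene Rgs1 (-1.22), lost its call without undifferentiated array 2 or either neutrophil array. C3ar1, the receptor of complement C3a, went from background at 4.64 and 4.22 to 12.70 and 13.98, at least 239-fold. The chemokine receptor gene Ccr1 went from 5.82 and 6.01 to 14.22 and 13.91. Cxcr2, the receptor of neutrophil-attracting chemokines, read 15.57 on neutrophil array 1 and 12.79 on array 2, both above the 6.84 and 6.58 of undifferentiated cells. The lipid mediator list had 13 of 26 higher and 4 lower. Alox5, the enzyme that starts leukotriene synthesis, rose from 5.41 and 5.44 to 10.78 and 9.26, and Pla2g4a, the phospholipase that releases arachidonate, fell from 12.99 and 13.38 to 9.67 and 9.22.

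Of 34 caspase, inflammasome and gasdermin genes 21 rose and 6 fell (median 1.23). Nlrp3, the sensor of the best-known inflammasome, read 6.52 and 6.24 before and 12.99 and 12.77 after (6.50 ± 0.330). Nlrp12, a related sensor protein of myeloid cells, rose from background at 4.89 and 4.88 to 11.11 and 9.51, at least 29.2-fold. Il1b, the cytokine that inflammasomes mature, differed by 4.11, a call lost when any 1 of the 4 arrays was left out. The necroptosis kinase gene Ripk3 fell from 9.98 and 9.05 to 6.37 and 6.81, and its substrate gene Mlkl from 11.93 and 11.58 to 9.04 and 9.37.

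Iron genes moved in both directions. Tfrc, the transferrin receptor, fell from 13.97 and 14.24 to 9.66 and 10.02 (-4.26 ± 0.580), and Slc11a1, which moves iron and manganese out of phagosomes, rose from 5.97 and 5.63 to 13.65 and 14.30 (8.18 ± 0.454). Of 35 iron and copper genes 13 rose and 9 fell, or 5 without undifferentiated array 1 or neutrophil array 1. Among 34 ion channel and pump genes 14 rose and 6 fell, or 3 without undifferentiated array 2 or neutrophil array 1. Trpm2, a calcium channel opened by oxidants, rose from 7.23 and 6.82 to 11.65 on both arrays, and Hvcn1, the voltage-gated proton channel, from 5.87 and 5.69 to 9.52 and 9.21. The potassium channel gene Kcna3 fell from 10.32 and 10.97 to 7.38 and 7.15.

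Of 35 genes for zinc-finger mRNA decay factors and other RNA-binding proteins 10 rose and 11 fell, or 7 without undifferentiated array 1. Zfp36, which binds AU-rich elements, went from 6.27 and 5.98 to 11.85 and 10.71, and its relative Zfp36l1 from 7.48 and 7.74 to 12.09 and 12.30. Msi2, an RNA-binding protein of stem and progenitor cells, fell from 9.81 and 10.01 to 6.81 and 6.73. Among surface families, 8 of 12 LY6 genes, 4 of 15 CEACAM genes and 5 of 7 CD300 genes rose and none fell. Ceacam1, an inhibitory adhesion receptor, went from 11.38 on both arrays to 16.58 and 15.84, and Cd300lf, a lipid-binding inhibitory receptor, from 6.49 and 6.76 to 13.80 and 13.49. Of 20 MS4A genes 8 rose and 2 fell. Ms4a7 went from 4.40 and 4.23 to 8.49 on neutrophil array 1 and 10.69 on array 2, the same order of arrays as the macrophage genes above.

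Most members of some families were at background. Of 49 keratins 1 was called, and 48 were at background on all 4 arrays. Of 1228 olfactory receptor genes 1195 were at background on all 4 arrays, and 36 were called higher and 11 lower. The higher count was 16 without undifferentiated array 1 and 19 without neutrophil array 1, and the lower count ranged from 1 to 7 when 1 array was left out. A few olfactory genes reached signals well above background. Olfr111 read 4.12 and 4.05 before and 11.98 and 13.87 after, at least 179-fold higher, and its near-identical neighbour Olfr110 read 3.47 and 3.74 before and 9.77 and 11.43 after, which the probes may not separate. Olfr1034, a different receptor, read 5.00 and 4.52 before and 10.91 and 9.94 after, at least 31.6-fold higher.

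Transcript classes moved by very different shares. Over all 65956 clusters, 13% were called higher and 12.2% lower. Protein-coding clusters were called higher in 14.8% and lower in 20.4% of 19437 cases. Pseudogene clusters were called lower in 34.3% and higher in 4.43% of 4287, with a median difference of -0.30, and many pseudogenes share sequence with their parent genes. Clusters without a symbol were called higher in 13.9% and lower in 5.16% of 33206. Ribosomal RNA clusters stood apart: 84 of 94 were lower and none higher. Their median difference was -1.92 at a median level of 15.38, and the highest signals on the 4 arrays were 19.46 to 19.67. All 4 Y RNA clusters were lower, with a median difference of -2.73. Of 30 clusters of the mitochondrial genome 8 were lower and none higher. The positive-control probe sets had medians of 11.21 and 10.93 on the undifferentiated arrays and 10.63 and 10.62 on the neutrophil arrays. The part of labelling or RNA input in these class shifts was not tested.

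**Figure D3:**
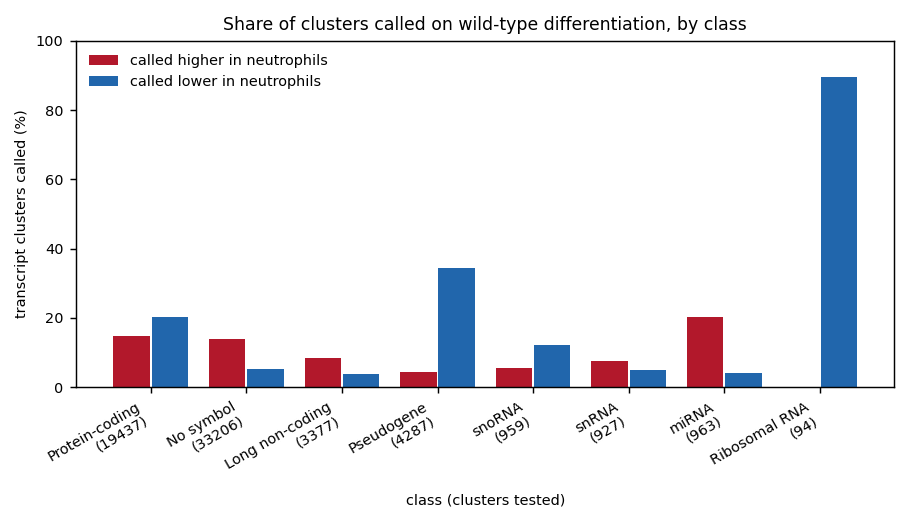
Percentage of transcript clusters of each class called higher (red) or lower (blue) in wild-type neutrophils than in undifferentiated wild-type cells by limma; the number under each class is the clusters tested. Of the 8 classes shown, ribosomal RNA has the tallest bar, 89.4% lower, pseudogenes reach 34.3% lower, and microRNA clusters have the largest share higher, 20.2%.

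Long non-coding RNAs on the fixed list were few. Neat1, the scaffold of nuclear paraspeckles, rose from 9.63 and 9.47 to 14.90 and 15.73 (5.76 ± 0.519). Snhg5 and Snhg6, hosts of small nucleolar RNAs, fell by 3.0 and 2.60. Malat1 differed by 1.79, a call lost when any 1 of the 4 arrays was left out. Of the 15 measured, 3 rose and 6 fell, with a median of -0.70, or -0.24 without neutrophil array 1. The whole class leaned the other way. Over all 3377 clusters annotated as long non-coding RNA, 8.29% were higher and 3.91% lower, with a median difference of 0.05, beside 13% and 12.2% of all clusters.

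MicroRNAs silence messages through a seed, bases 2 to 8 of the mature strand. For that reason mature sequences of some of the microRNA genes named in this report are shown, 1 strand of each. Those of Mir142 and Mir146 are included although these genes are not among the 5 largest rises. Those of Mir3103 and Mir5709, among the 5 largest falls, are left out. Of 914 microRNA genes 181 were called higher and 32 lower (median difference 0.157), and 478 were at background on all 4 arrays. The higher count fell to between 94 and 103 without undifferentiated array 1, undifferentiated array 2 or neutrophil array 2, and the lower count was 16 to 21 without any 1 of the 4. The probe sets lie in the hairpin loci and read any total RNA there, so they do not separate the mature microRNA from its precursor or from the gene it lies in. Of the 914, 765 have a mature sequence in RefSeq, as have 12 of the 14 named. Capitals mark the seed, and coordinates are GRCm38.p6.
mmu-miR-7062-5p, chr7:139986846-139986869, minus strand: uGGAGGCCagcuuguggagugucu
mmu-miR-292b-3p, chr7:3219198-3219218, minus strand: aAGAGCCCccaguuugaguau
mmu-miR-692, chr17:6895259-6895279, minus strand: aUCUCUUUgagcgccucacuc
mmu-miR-6928-5p, chr11:101030345-101030367, plus strand: aGGGGAUUugcauggacugcacu
mmu-miR-7007-5p, chr3:20222332-20222354, minus strand: uCAGAAGAggcaguggaggagau
mmu-miR-142a-3p, chr11:87756903-87756925, plus strand: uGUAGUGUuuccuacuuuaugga
mmu-miR-146a-5p, chr11:43374435-43374456, minus strand: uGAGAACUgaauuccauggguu
None of these 7 strands shares its seed with another of them.

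Several of the microRNA loci with the largest changes lie within messenger genes that changed as well. Mir7062 read 5.10 and 5.07 before and 10.39 and 10.21 after, at least 29.0-fold higher, and overlaps Adam8, a metalloprotease gene of neutrophils that rose by 9.59. Mir292b read 3.73 and 4.31 before and 9.19 and 7.74 after, and overlaps Nlrp12, which rose by 5.42. Mir6928 rose by 3.21 within the V-ATPase gene Atp6v0a1, which rose by 2.33. Mir7007 read 14.50 and 14.85 before and 6.95 and 6.25 after, a difference of -8.08 ± 0.598, within Cpa3, the mast cell carboxypeptidase gene, which fell by 11.17. These hosts were looked up after the values were seen.

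For Mir692-1 the lookup returned no overlapping gene. The identifier of the cluster annotated as Mir325 names another chromosome than that of the Mir325 locus in RefSeq, so the locus it reads is uncertain and neither a host nor a sequence is given for it. Mir692-1 read 12.54 and 12.04 before and 15.71 ± 0.402 after (SD, n = 2), and the Mir325 cluster read 10.18 and 9.86 before and 12.98 and 13.56 after. Other falls were smaller, with Mir684-2 at -1.90, Mir684-1 at -1.85, Mir3103 at -1.82 and Mir5709 at -1.74. The call of Mir3103 was lost without undifferentiated array 2 or neutrophil array 1. Well-studied myeloid microRNAs, chosen after their values were seen, gave differences of 3.20 for Mir142, 2.86 for Mir146 and 2.35 for Mir15a, all called higher, and -0.87 for Mir155.

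The same step in Ezh2-null cells was measured on 4 other arrays and shares none with the comparison above. In that genotype 11.7% of clusters were called higher and 10.7% lower (9.8% and 17.7% of named genes). Of the 8604 clusters higher in the wild type, 5132 were higher in Ezh2-null cells, 63 were lower and 3409 were not called; of the 8060 lower, 5055 were lower, 106 were higher and 2899 were not called. The difference between the 2 changes, tested as an interaction, was called for 2911 clusters (4.41%), with the wild-type change above the Ezh2-null change in 1.65% and below it in 2.77%. The Ezh2 signal itself was 8.88 on average in the neutrophils labelled Ezh2-null, above the 8.33 of wild-type neutrophils, and 9.27 against 11.61 in the undifferentiated cells.

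The size of the 2 changes was set side by side for clusters called in either genotype, and choosing clusters by a call in one genotype favours a larger change in that genotype. Among clusters higher in the wild type 845 had a called interaction, and in 693 of these the Ezh2-null change was smaller in size; among clusters lower in the wild type the counts were 1348 and 1239. Among clusters higher in Ezh2-null cells 924 had a called interaction, and in 584 of these the wild-type change was smaller in size; among clusters lower in Ezh2-null cells the counts were 1022 and 392. The interaction count fell to 1352 with the 8 genotype arrays alone and to 1511 without undifferentiated array 2. Car2 differed by -9.41 in the wild type and 1.65 in Ezh2-null cells, Cpa3 by -11.17 and 1.00, and Mcpt8 by -7.40 and 3.71. Adgrg7 differed by -7.50 and -0.26. It was already at background in undifferentiated Ezh2-null cells, at 4.23 and 4.12, so no fall could be read there. Adgrl4 is the exception among the 15 largest falls, with -7.92 in the wild type and -10.09 in Ezh2-null cells, and Spns2 did not differ between genotypes by the test (-7.40 and -7.43, limma adjusted p = 0.986).

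**Figure D4:**
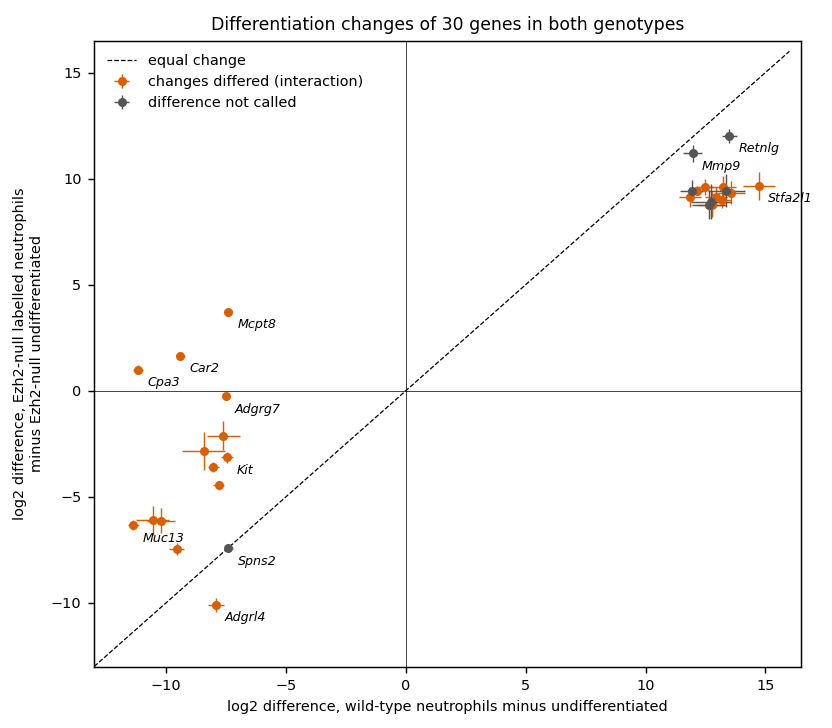
For the 15 largest rises and 15 largest falls of wild-type differentiation, the log2 difference in wild-type cells (x axis) is set against that in Ezh2-null cells (y axis); bars are standard errors of the limma fit, orange points have a called interaction and the dashed line marks equal change. Adgrl4 is the 1 orange point below the line on the left, and Car2, Cpa3 and Mcpt8 lie above 0.

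Of all named genes 6.72% had a called interaction, 2.54% with the wild-type change above the Ezh2-null change and 4.18% with it below. By share, the 10 highest of 80 lists were guanylate-binding proteins (5 of 7), erythroid and megakaryocyte genes (11 of 16), neutrophil identity (10 of 18), promyelocyte and progenitor genes (11 of 20), histone variants and chaperones (11 of 20), mast cell, basophil and eosinophil genes (8 of 17), CENP genes (8 of 19), nuclear envelope (12 of 30), chaperones (11 of 30) and kinesins (13 of 37). In 8 of the 80 lists no gene had one, and among the low counts were 1 of 25 V-ATPase genes, 1 of 21 mitochondrial import genes and 2 of 35 spliceosome genes. Cenph differed by -4.33 in the wild type and -0.54 in Ezh2-null cells, and Kif11 by -3.73 and -0.27. Odc1 differed by -5.79 and -1.34, Slc16a1 by -5.62 and -1.55, and Slc2a3 by 6.86 and 1.92. Tfrc fell in the wild type and differed by 1.32 in Ezh2-null cells. In contrast, Ctss differed by 10.85 and 10.92, Pirb by 9.76 and 9.06, Hmox1 by 7.03 and 6.89 and Nlrp3 by 6.50 and 6.24, with no called interaction in any of these 4.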

How the data were processed

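The deposited series table held log2 signals per transcript cluster for all 12 arrays. Per the submitters' processing notes the authors used Affymetrix Expression Console and Transcriptome Analysis Console; the sources used here name no summarisation, normalization or genome build. The GSK343 and vehicle arrays had medians of 3.88 to 3.96 against 4.54 to 4.65 on the other 8, and entered only the estimate of spread. Gene symbols came from the platform annotation, updated through RefSeq for 23435 of 31221 clusters with 1 symbol; 33206 had none and 1529 several.

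Group means were fitted with limma 3.58.1 in R 4.3.3 over all 12 arrays (6 residual degrees of freedom), with Benjamini-Hochberg adjustment over all clusters at 0.05, and the fit was tested on simulated data. An exact permutation test of 2 against 2 arrays cannot go below p = 0.3333. Genes named are the 15 largest rises and falls and, per list, the 3 largest called rises and falls and up to 3 with the smallest difference, the 5 largest microRNA rises and falls, Ezh2 and identity genes; microRNA hosts and 4 well-studied microRNAs were added after their values were seen. Members and lists were chosen with earlier results of these data known. Alternatives were quantile normalization, median centring, fewer arrays, a filter on dim clusters, an intensity trend, a replicate block, another background and leaving out each array. The result of 1 gene list is not reported here.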

Additional observations from a re-analysis of the deposited data

Results flagged for a closer look

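The change from undifferentiated cell to neutrophil differed between the wild-type and Ezh2-null genotypes for 2911 clusters by limma's interaction test. Among 203 genes named in the report, most of them named for a large change in the wild type, 65 differed, beside 6.72% of all named genes. Values below are the wild-type change minus the Ezh2-null change on the log2 scale, each with an adjusted p under 0.05, and no explanation was tested.

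Mast cell and basophil genes and a microRNA locus had negative values: Cpa3 (-12.17), Mir7007 (-8.64), Tpsb2 (-11.55), Mcpt8 (-11.11), Ms4a2 (-5.20) and Fcer1a (-4.11). Mir7007 lies within Cpa3. Erythroid and megakaryocyte list genes also had negative values, Car2 (-11.06), Tfrc (-5.58), Klf1 (-4.12), Alas2 (-3.44) and Epor (-2.33). Tpsb2, Fcer1a, Klf1, Alas2 and Epor were at background on both wild-type neutrophil arrays.

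These growth genes, which fell in the wild type, had negative values: Odc1 (-4.45), Slc7a5 (-4.35), Slc16a1 (-4.08), Nop58 (-3.19), Dkc1 (-3.14), Myc (-3.11), Asns (-2.96), Shmt2 (-2.60), Fkbp4 (-2.22), Idh3a (-2.04), Nolc1 (-1.97), Ddx21 (-1.79), Srm (-1.71), Nsun2 (-1.60), Cct3 (-1.49), Pus7 (-1.39), Eif3i (-1.0) and Phgdh (-0.93). Prdx3 differed by -2.33. Division and nuclear genes did so as well, Cenph (-3.79), Nup210 (-3.55), Kif11 (-3.46), Hmgb3 (-3.03), Stmn1 (-1.85), Nup107 (-1.69) and Hdac2 (-1.47). Ezh2 (-2.89) is the deleted gene itself, and read 9.27 on average before and 8.88 after in Ezh2-null cells.

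Surface and progenitor genes with negative values were Adgrg7 (-7.24), Igfbp7 (-5.59), Pecam1 (-5.17), Ctsg (-4.45), Tespa1 (-4.45), Angpt1 (-2.11) and Rab38 (-1.90). Of these, Adgrg7 was already at background in undifferentiated Ezh2-null cells. Mir5709 gave -1.32, but only undifferentiated wild-type array 2, at 5.57, was above background among the 8 arrays compared, so this is a difference between signals near background. Hk3 and Lmna, not called in the wild type, gave -3.34 and -0.69. The RNA helicase genes Ddx60 and Ddx58, which rose in the wild type, gave -3.36 and -1.59.

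Genes that rose more in the wild type were Zfp36l1 (1.77), Hvcn1 (1.97), Ncoa3 (2.01), Pik3r5 (2.09), Pfkfb4 (2.26), Csta3 (2.71), Rasgrp4 (2.78), Kif1b (3.06), Padi4 (3.23), Cstdc6 (3.80), Ltf (4.20), Slc2a3 (4.94) and Maf (5.95). Cstdc6, Ltf and Csta3 both started higher and ended lower in Ezh2-null cells than in the wild type. Undifferentiated Ezh2-null cells read 8.24 and 6.46 for Cstdc6, against 4.49 and 4.51 in the wild type. For Ltf they read 7.68 and 6.41 against 4.79 and 4.88, and for Csta3 6.59 and 5.51 against 4.67 and 4.81. Ezh2-null neutrophils read 16.75 and 16.24 for Cstdc6, against 17.75 and 17.14 in the wild type. For Ltf they read 15.81 and 16.26 against 18.38 and 17.66, and for Csta3 15.90 and 14.46 against 16.77 and 16.40. Levels of the other genes of this group in Ezh2-null cells are not set out here. Adgrl4 and Hlf, which fell in the wild type, had positive values of 2.16 and 3.07.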

How the results depend on the processing

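The counts of clusters called higher (8604), lower (8060) and at 2-fold or more (11533) stayed within 1.5 times in all alternatives run. Leaving out 1 wild-type array gave 6145 to 6884 higher, 6398 to 6756 lower and 10097 to 10757 at 2-fold. Quantile normalization gave 7505 higher and 8666 lower, and median centring 7638 and 8779, so both turned the balance. Leaving out either undifferentiated array also turned it, and leaving out either neutrophil array did not. The count that differed by genotype (2911) was 1352 with the 8 genotype arrays alone and 1511 to 3229 without 1 wild-type array. The cause was not tested.

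The labels do not say that replicate numbers pair arrays, and same-numbered deviations correlated at -0.109 between the 2 wild-type groups. A fit with the replicate block gave 8156 higher, 7670 lower and 2303 that differed by genotype. Crossed numbers, an alternative chosen after seeing the data, gave 7664 higher and 7559 lower.

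Of 382 followed genes 381 were called, and most were chosen for a large called change, which favours calls that hold. Per setting 0 to 36 lost the call, with no reversal. The 0 belongs to the filter on dim clusters, which kept only 371 of these genes. The number of arrays limits the precision, and a signal at background gives only a limit, which depends on the background used.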

Other observations

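Families not described in the report moved both ways. Of 337 genes with KRAB-type zinc finger names 86 fell and 32 rose, but 19 rose without undifferentiated array 2 and 21 without neutrophil array 1. Zfp507 fell by 4.02. Of 64 TRIM genes 16 rose and 11 fell, or 7 without undifferentiated array 2 or neutrophil array 1. Trim30b rose by 5.64, and Trim28, the corepressor that KRAB zinc finger proteins recruit, fell by 3.48.

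Of 34 ubiquitin-conjugating enzyme genes 10 fell and 7 rose, with 4 higher without undifferentiated array 2 and 3 without neutrophil array 1. Ube2c, which acts with the anaphase-promoting complex, fell by 3.10, and Ube2h rose by 2.60. Of 20 tetraspanins 4 fell and 1 rose, and that 1 call, Tspan14 (1.24), was lost without undifferentiated array 2 or neutrophil array 1. Tspan13 fell by 4.41. Of 7 guanylate-binding protein genes 3 fell in the wild type, with a median difference of -0.85, which was 0.02 without neutrophil array 1 and -1.76 without array 2. In Ezh2-null cells 5 of the 7 rose, with a median of 0.86.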
